A study of Homo sapiens with 21 samples.

Results

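The mRNAs of lysosome, V-ATPase and autophagy genes were followed through 7 treatments of Hs578T cells, an established line of triple-negative breast cancer. The set holds 47 listed genes, found by matching the NCBI gene identifiers of the count table to current symbols, out of 28395 genes in the table. It was divided into 9 lists by role, and 46 of the 47 genes were among the 16036 genes with enough counts to be tested. Cells of 1 line were collected 8 h after treatment with the solvent DMSO, 0.1 µM THZ531, 3.16 µM lapatinib, 1 µM nilotinib, lapatinib with 0.1 µM THZ531, nilotinib with 0.1 µM THZ531, or 1 µM THZ531, with 3 libraries in each group. THZ531 inhibits CDK12 and CDK13, kinases of elongating RNA polymerase II, whereas lapatinib and nilotinib inhibit tyrosine kinases. Lapatinib and nilotinib were added at the same doses alone and in the combinations, and the genotype of all cells is given as WT. By the study's own account the libraries stem from independent experiments, while the labels give replicate numbers without saying which experiment a number stands for.

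Lysosomes are acid organelles in which hydrolases break down proteins, sugars and lipids delivered by endocytosis and autophagy. The V-ATPase keeps them acid: its membrane sector V0 carries the protons, its cytosolic sector V1 hydrolyses ATP, and accessory subunits help to assemble the pump. Transcription factors of the MiT/TFE family (TFEB, TFE3 and MITF) activate many of these genes through a short palindromic element in their promoters.

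Total counts per library lay between 97612207 and 112229052, so that counting error was small for all but the rarest members. Among cell markers, the mesenchymal genes VIM, CDH2, SPARC, FN1 and ZEB1 were at 201 ± 14.2 (ZEB1) to 6845 ± 281 (VIM) CPM (counts relative to library size, mean ± SD, n = 3) in DMSO, the luminal and hormone receptor genes ESR1, PGR, EPCAM, CDH1 and ERBB3 at no more than 0.543 ± 0.0522 (ERBB3), and the endothelial genes PECAM1, VWF and CDH5 at no more than 0.378 ± 0.119 (PECAM1). Of 4 leukocyte markers, PTPRC, CD14 and LYZ were at no more than 1.05 ± 0.185 CPM (PTPRC), while CD68, itself a lysosomal membrane protein, was at 111 ± 11.2 CPM. CPM values are scaled by the trimmed mean of M-values (TMM), which sets the bulk of mRNAs equal between libraries. The share of counts from the 13 mitochondrial mRNAs was 1.25% ± 0.0895 in DMSO and 1.22% ± 0.0669 with 0.1 µM THZ531 (SD, n = 3). With lapatinib and nilotinib alone it was higher, at 1.38% ± 0.114 and 1.40% ± 0.149. It was 1.60% ± 0.139 and 1.56% ± 0.115 in the combinations with lapatinib and nilotinib and 1.53% ± 0.219 with 1 µM THZ531. In these bulk samples a fall of total mRNA per cell and a rise of 1 mRNA relative to the others cannot be told apart.

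Most members were modestly higher relative to the bulk of mRNAs after the 3 treatments that altered most tested genes (both combinations and 1 µM THZ531), while TFEB, ATP6V0A2, ATP6V1C1 and WIPI1 fell in all 3. With lapatinib and 0.1 µM THZ531, 29 of 46 members were called higher and 5 lower (adjusted p under 0.05, edgeR quasi-likelihood test), where 34.3% of all tested genes were called higher and 37.8% lower. With nilotinib and 0.1 µM THZ531, 24 were higher and 5 lower, against 33.7% and 37.3% of all genes. With 1 µM THZ531, 31 were higher and 5 lower, against 33.1% and 36.8% of all genes. The median log2 fold change (FC) over the 46 members was 0.43, 0.33 and 0.41 in that order, beside -0.0099, -0.013 and -0.0096 over all tested genes. Few members changed by more than 1 on the log2 scale: 1 rose (GABARAPL1) and 4 fell in the lapatinib combination (all genes 7.9% and 21.3%), 0 and 4 in the nilotinib combination (6.54% and 20.8%), and 0 and 1 with 1 µM THZ531 (5.77% and 18.9%). All 3 libraries lay above all 3 DMSO libraries for 27, 24 and 31 members in that order (all genes 34.8%, 34.6% and 34.4%) and below them for 5 in each (38.6%, 38.3% and 37.8%). These comparisons share the DMSO libraries. The same 23 members were called higher in all 3 treatments and 4 were called lower in all 3, while 6 (CTSB, CTSK, GUSB, HEXA, SGSH and SQSTM1) were called in none. The fifth gene called lower was TFE3 in each combination and MITF with 1 µM THZ531. Over all tested genes, 27.2% were called higher in all 3 and 30.8% lower in all 3.

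Cell markers moved in the same treatments. Of 17 markers in 4 lists 13 were tested, and on the TMM scale 6, 7 and 6 were called higher and 1, 2 and 1 lower in the lapatinib combination, the nilotinib combination and 1 µM THZ531, against 0, 0 and 1 higher and 3, 2 and 2 lower under mitochondrial scaling. Of the 5 mesenchymal markers 4, 4 and 3 were called higher, with a median log2 FC of 0.52, 0.54 and 0.49, and their summed level per library was 11137 to 12441 CPM in DMSO and 15730.3 to 17896, 15584 to 17182 and 15847 to 17061 CPM in these groups. Of the leukocyte markers CD68 rose by 0.54, 0.39 and 0.52 and PTPRC, with about 1 CPM in DMSO, by 0.74, 0.82 and 1.14, the summed level of all 4 being 105.1 to 125 CPM in DMSO and 133 to 180.2, 129.7 to 156 and 147 to 178 CPM. The leukocyte marker CD14 was at -1.66, -2.24 and -0.60, called lower in the nilotinib combination alone. Of the luminal and receptor list, ESR1, also under 1 CPM, was called lower at -1.496, -1.25 and -1.02. ERBB3 of that list was at 0.37, 0.59 and 0.79, called higher in the nilotinib combination and with 1 µM THZ531, and CDH1 was not called. The luminal and receptor list summed to no more than 1.75 CPM and the endothelial list to no more than 0.804 CPM in any library. PGR and CDH5 were at 0 in all DMSO libraries. The part of these markers in the members' changes was not tested.

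The rises were called relative to the bulk of mRNAs, but not relative to mitochondrial mRNAs. When libraries were scaled to the 13 mitochondrial mRNAs, the median log2 FC of all genes fell to -0.69, -0.63 and -0.55 with the lapatinib combination, the nilotinib combination and 1 µM THZ531. Of the members, 0 were called higher in any of the 3 by edgeR, while 16, 20 and 13 were called lower. Of all tested genes, 5.3%, 4.83% and 4.35% were called higher and 58.4%, 55.9% and 52.5% lower. Of 38, 36 and 40 members above 0 on the TMM scale, 25, 26 and 24 turned below 0. ATP6V0C, CTSL and MAP1LC3B stayed above 0 in all 3, without a call. Their SE in the lapatinib combination was 0.13, 0.13 and 0.14 under this scaling, beside 0.061, 0.047 and 0.057 on the TMM scale. A missing call under mitochondrial scaling is thus not a measured absence of a rise. The median of the members was 0.43, 0.34 and 0.43 above that of all genes under this scaling, beside 0.44, 0.34 and 0.42 on the TMM scale. A change of scaling shifts all genes of a library alike, so this gap could hardly change and is no separate result. With library size alone, 17, 14 and 17 members were higher and 9, 10 and 7 lower. Below, "rose" and "higher" are on the TMM scale, thus relative to the bulk of mRNAs, and no member was called higher against DMSO under mitochondrial scaling. The counts in each role list stand beside 34.3%, 33.7% and 33.1% of all tested genes called higher and 37.8%, 37.3% and 36.8% lower on the TMM scale. The falls of TFEB, ATP6V0A2, ATP6V1C1 and WIPI1 in all 3 treatments and of TFE3 in both combinations were called in all 10 alternative analyses and in all 21 analyses with 1 library left out.

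**Figure D1:**
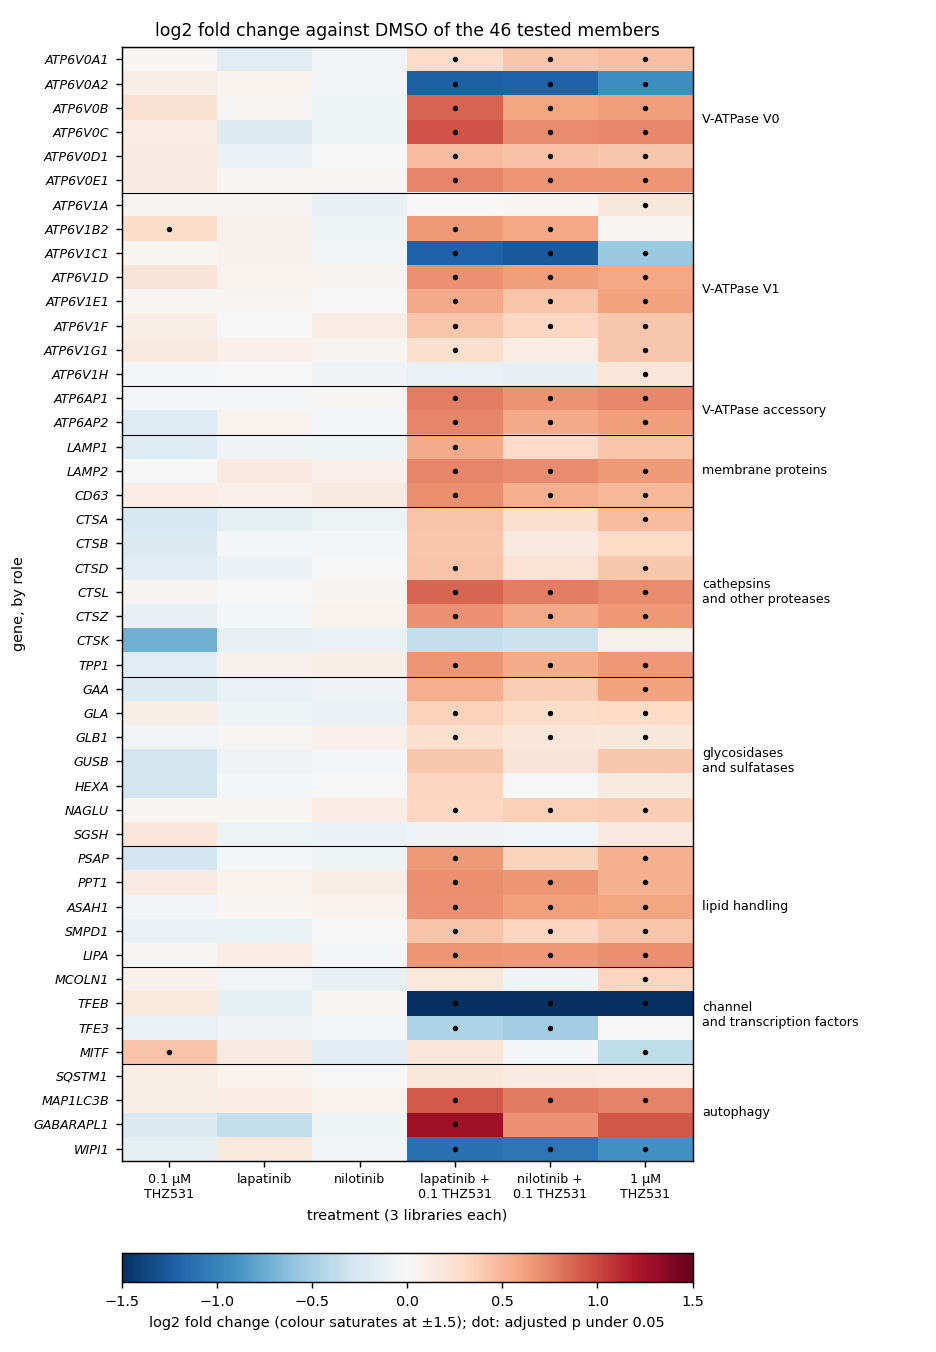
Log2 FC against DMSO (colour, TMM scale) of the 46 tested members, ordered by role, in 6 treatments of 3 libraries each, with a dot where the adjusted p was under 0.05. The left 3 columns hold 2 dots in all, and the right 3 columns are mostly red with 4 genes blue throughout, whereas no member was called higher under mitochondrial scaling.

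The channel and transcription factor list was the one in which most calls were falls. TFEB, a master activator of lysosomal and autophagy genes, was at 2.43, 2.43 and 2.45 CPM in the DMSO libraries, 2.31, 2.64 and 3.19 with 0.1 µM THZ531, 2.22, 2.16 and 2.30 with lapatinib and 2.67, 2.25 and 2.55 with nilotinib. It was at 0.47, 0.58 and 0.356 CPM with the lapatinib combination, 0.346, 0.303 and 0.22 with the nilotinib combination and 0.819, 0.44 and 0.653 with 1 µM THZ531. All 9 libraries of these last groups lay below all 12 of the others. The log2 FC against DMSO was -2.37 ± 0.20 (SE), -3.07 ± 0.21 and -1.93 ± 0.19, with adjusted p of 1.97e-09, 1.10e-10 and 3.01e-08, from 20 to 361 counts per library.

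TFE3, its close relative, was at 45.4, 52.5 and 46.4 CPM in DMSO, 40.04, 46.7 and 47.6 with 0.1 µM THZ531, 43.2, 49.5 and 46.7 with lapatinib and 46.3, 48.4 and 47.4 with nilotinib. The values were 34.1, 35.6 and 35.5 with the lapatinib combination, 33.5, 33.97 and 32.9 with the nilotinib combination and 47.2, 54.1 and 42.3 with 1 µM THZ531. Both combinations lay below every other library, whereas 1 µM THZ531 overlapped DMSO. The log2 FC was -0.46 ± 0.09 (adjusted p = 9.00e-05) and -0.52 ± 0.09 (adjusted p = 2.00e-05) in the combinations and -0.01 ± 0.09 (adjusted p = 0.937) at 1 µM THZ531. Under mitochondrial scaling TFE3 was called lower at 1 µM too, at -0.55.

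MITF, the third family member and best known from melanocytes, was rare, at 2.20, 2.21 and 2.04 CPM in DMSO, 2.73, 3.09 and 2.83 with 0.1 µM THZ531, 2.48, 2.24 and 2.33 with lapatinib and 2.08, 1.85 and 1.81 with nilotinib. It was at 2.36, 2.58 and 2.38 and 1.85, 2.24 and 2.31 CPM with the lapatinib and nilotinib combinations and 1.96, 1.39 and 1.58 with 1 µM THZ531. The libraries with 0.1 µM THZ531 lay above all DMSO libraries and those with 1 µM lay below them. MITF rose by 0.42 on the log2 scale at 0.1 µM (adjusted p = 0.0447) and its log2 FC was -0.39 at 1 µM (adjusted p = 0.01), with 0.18 and -0.01 in the combinations, neither called. The call at 0.1 µM was lost in 14 of 21 analyses that left out 1 library, with adjusted p up to 0.181, and the call at 1 µM in 1 of 21, without replicate 2 of 1 µM THZ531 (-0.28, adjusted p = 0.0692). The call at 1 µM was also lost in 2 of 10 alternatives, upper-quartile scaling (-0.19) and a fit without the other groups.

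MCOLN1, the lysosomal calcium channel TRPML1, was at 29.8, 32.5 and 31.1 CPM in DMSO, 33.1, 34.2 and 37.2 and 32.4, 30.4 and 27.5 in the lapatinib and nilotinib combinations and 35.2, 43.6 and 37.6 with 1 µM THZ531. Alone, the agents gave 30.6, 33.7 and 33.3 with 0.1 µM THZ531, 29.4, 30.5 and 30.8 with lapatinib and 28.1, 30.5 and 27.9 with nilotinib. Only the 1 µM libraries were called higher, at 0.32 ± 0.08 (adjusted p = 0.00179), and 8 of 10 alternatives made this call. Library size alone and mitochondrial scaling did not, the latter with -0.22 at 1 µM, and mitochondrial scaling called MCOLN1 lower in the lapatinib and nilotinib combinations (-0.52 and -0.66). In the lapatinib combination the 3 libraries also lay above DMSO, but at 0.16 ± 0.08 the adjusted p was 0.0807, or 0.0475 without replicate 2 of 1 µM THZ531.

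MiT/TFE factors bind the palindrome TCACGTGA, the core of the CLEAR element, which holds the E-box CACGTG within it. Promoter windows from 250 bases before to 50 after a RefSeq start (GRCh38.p14) were at hand for 34 of the 47 members, and those of ASAH1, ATP6V0E1, ATP6V1A, ATP6V1B2, ATP6V1C1, ATP6V1H, CTSB, CTSK, HEXA, LAMP2, NAGLU, PSAP and SGSH were not used here. TCACGTGA, which reads the same on both strands, stood in a window of 6 of the 34 members (17.6%) and of 1.18% of the 27305 genes with windows, or 2.03% of the 12271 of these that were tested. CACGTG stood in 10 of the 34 (29.4%), in 8.77% of the 27305 genes and in 11.9% of the 12271 tested. The 6 members were ATP6V0D1, ATP6V1G1, CTSA, GAA, LAMP1 and MCOLN1, and the 30 bases around 1 copy for each, the one nearest the start among those whose 30 bases end before it, are shown because they carry the binding motif of TFEB and TFE3, whose mRNAs fell, with the motif in capitals and each sequence 5′ to 3′ along the gene.
ATP6V0D1 (chr16:67481199-67481228, minus strand): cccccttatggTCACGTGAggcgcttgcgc
ATP6V1G1 (chr9:114587699-114587728, plus strand): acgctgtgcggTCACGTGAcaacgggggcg
CTSA (chr20:45891298-45891327, plus strand): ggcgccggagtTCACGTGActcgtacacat
GAA (chr17:80101538-80101567, plus strand): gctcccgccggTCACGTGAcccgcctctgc
LAMP1 (chr13:113297199-113297228, plus strand): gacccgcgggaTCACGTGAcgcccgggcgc
MCOLN1 (chr19:7522571-7522600, plus strand): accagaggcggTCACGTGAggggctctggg
The motif centres lay 22 to 56 bases before the start, and GAA, LAMP1 and MCOLN1 each held another TCACGTGA within their window, that of MCOLN1 centred 11 bases before the start. ATP6V0B, CD63, CTSD and NEU1 held CACGTG but not the whole TCACGTGA. On the TMM scale, 3 of the 6 members with TCACGTGA and 20 of 27 tested members without it were called higher in the lapatinib combination, 1 of 6 and 18 of 27 in the nilotinib combination, and 5 of 6 and 19 of 27 with 1 µM THZ531. The median log2 FC in the lapatinib combination was 0.44 with the motif and 0.56 without it. Of the 6, GAA, LAMP1 and CTSA varied most between libraries, with SE of 0.26, 0.21 and 0.19 in that combination. There GAA and CTSA were not called at 0.55 and 0.43. Whether the calls depend on the motif was not tested. A match is a stretch of letters and not a measured binding site.

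The membrane sector V0 held 5 members called higher and 1 lower in each of the 3 treatments on the TMM scale, with 0 called higher under mitochondrial scaling. ATP6V0C, which forms the proton-carrying ring, was at 164, 182 and 171 CPM in DMSO, 181, 194 and 182 with 0.1 µM THZ531, 154, 149.8 and 145 with lapatinib and 168, 164 and 161 with nilotinib. It was at 316, 321 and 360.2 CPM with the lapatinib combination, 270.3, 292 and 282 with the nilotinib combination and 268, 288 and 294 with 1 µM THZ531. The strong treatments lay above all other groups and the lapatinib combination above the other 2. Its log2 FC was 0.95 ± 0.06, 0.71 ± 0.06 and 0.72 ± 0.06 (adjusted p = 3.08e-11, 2.57e-09 and 2.63e-09).

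ATP6V0A2, an a subunit used in the Golgi and endosomes, moved the other way. It was at 27.2, 23.2 and 24.9 CPM in DMSO, 27.9, 27.5 and 24.8 with 0.1 µM THZ531, 27.6, 24.3 and 26.2 with lapatinib and 25.4, 23.4 and 24.4 with nilotinib, and at 11.8, 11.1 and 9.29 with the lapatinib combination, 10.8, 10.6 and 11.2 with the nilotinib combination and 13.8, 13.1 and 12.5 with 1 µM THZ531. No library of the strong treatments reached the lowest of the other 12. The log2 FC was -1.23 ± 0.09, -1.21 ± 0.09 and -0.93 ± 0.09 (adjusted p = 1.37e-10, 1.91e-10 and 9.98e-09). The other a subunit listed, ATP6V0A1, rose by 0.29, 0.41 and 0.45 on the log2 scale under TMM, but was called lower in the lapatinib combination under mitochondrial scaling (-0.40). ATP6V0B (0.87, 0.59 and 0.63), ATP6V0E1 (0.74, 0.66 and 0.66) and the d subunit ATP6V0D1 (0.46, 0.44 and 0.41) rose in all 3.

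In the cytosolic sector V1, 5, 4 and 6 of 8 members were called higher and 1 lower with the lapatinib combination, the nilotinib combination and 1 µM THZ531 on the TMM scale, and 0 higher under mitochondrial scaling. ATP6V1C1, a stalk subunit that joins V1 to V0, was at 151, 139 and 146 CPM in DMSO, 158, 147 and 138 with 0.1 µM THZ531, 160.4, 145 and 149 with lapatinib and 138, 143 and 143 with nilotinib. It was at 72.2, 57.2 and 58.8 CPM with the lapatinib combination, 69.1, 57.5 and 55.01 with the nilotinib combination and 92.1, 114 and 90.9 with 1 µM THZ531. The 1 µM libraries lay between the combinations and the other groups, without overlap on either side. The log2 FC was -1.21 ± 0.10, -1.26 ± 0.10 and -0.55 ± 0.10 (adjusted p = 1.60e-09, 9.46e-10 and 6.09e-05).

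ATP6V1B2, the B subunit of the ATP-hydrolysing head in most tissues, was at 164, 151 and 175 CPM in DMSO, 209, 195 and 187 with 0.1 µM THZ531, 185, 164 and 164 with lapatinib and 155, 156 and 157 with nilotinib. It was at 256, 262 and 244 CPM with the lapatinib combination, 246, 247 and 241 with the nilotinib combination and 166, 147 and 188 with 1 µM THZ531. The combinations lay above all other libraries, 0.1 µM THZ531 lay above DMSO, and 1 µM THZ531 overlapped DMSO. It was called higher at 0.1 µM (0.27 ± 0.08, adjusted p = 0.0434) and in the combinations (0.64 ± 0.08, adjusted p = 3.90e-07, and 0.58 ± 0.08, adjusted p = 1.42e-06), while the value at 1 µM was 0.03 ± 0.08 (adjusted p = 0.73). The call at 0.1 µM was lost in 13 of 21 analyses that left out 1 library, with adjusted p up to 0.201, and under mitochondrial scaling ATP6V1B2 was called lower at 1 µM (-0.51).

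ATP6V1D, a subunit of the rotor, had the greatest rise of V1 in both combinations on the TMM scale, from 95.1, 85.2 and 96.4 CPM in DMSO to 169, 132 and 144, 161, 139.5 and 129 and 130.5, 146 and 138 in the lapatinib combination, the nilotinib combination and 1 µM THZ531. No library of these 3 groups overlapped DMSO. The agents alone gave 113, 105 and 99.3 with 0.1 µM THZ531, 105, 91.4 and 89.5 with lapatinib and 97.00, 93.7 and 94.7 with nilotinib. Its log2 FC was 0.68, 0.63 and 0.58. ATP6V1E1 (0.56, 0.42 and 0.60) and ATP6V1F (0.41, 0.31 and 0.40) also rose in all 3. ATP6V1G1 was called in the lapatinib combination and at 1 µM (0.23 and 0.40, beside 0.11 in the nilotinib combination). The catalytic A subunit ATP6V1A and the regulatory H subunit ATP6V1H were called higher at 1 µM alone, at 0.17 and 0.19, with 0.01 and -0.10 in the lapatinib combination and 0.02 and -0.13 in the nilotinib combination, where ATP6V1H was called lower without replicate 1 of that combination (-0.20, adjusted p = 0.0325). The 1 µM calls of ATP6V1A and ATP6V1H were lost in 2 and 4 of 21 analyses with a library left out, and that of ATP6V1G1 in the lapatinib combination in 10. Under mitochondrial scaling ATP6V1A and ATP6V1H were called lower in all 3 treatments, at -0.67 and -0.78 in the lapatinib combination, and ATP6V1G1 in both combinations.

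Both accessory subunits rose in all 3 treatments on the TMM scale, and neither was called in any of them under mitochondrial scaling. ATP6AP1 was at 109.9, 127 and 114 CPM in DMSO, 183, 202 and 215 and 182, 193 and 187 in the lapatinib and nilotinib combinations and 199, 194 and 186 with 1 µM THZ531. ATP6AP2, also known as the prorenin receptor, was at 45.1, 48.4 and 42.8 CPM in DMSO and 64.9, 87.8 and 74.3, 61.8, 68.8 and 71.97 and 75.8, 68.8 and 66.04 in the same order. These groups did not overlap DMSO for either gene. Given singly, the agents left ATP6AP1 at 109, 114 and 125 with 0.1 µM THZ531, 107, 122 and 115 with lapatinib and 115, 119 and 122 with nilotinib and ATP6AP2 at 36.9, 42.1 and 40.3 with 0.1 µM THZ531, 43.1, 49.2 and 49.4 with lapatinib and 47.02, 44.1 and 43.2 with nilotinib. The log2 FC was 0.77 ± 0.07, 0.68 ± 0.07 and 0.72 ± 0.07 for ATP6AP1 and 0.74 ± 0.10, 0.57 ± 0.10 and 0.63 ± 0.10 for ATP6AP2 (adjusted p at most 2.61e-05).

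Of the membrane proteins, LAMP2, a major glycoprotein of the lysosomal membrane and a receptor in chaperone-mediated autophagy, was at 219.6, 193 and 205 CPM in DMSO, 343, 350.4 and 334 with the lapatinib combination, 342, 321 and 347 with the nilotinib combination and 342, 316 and 308 with 1 µM THZ531. It was at 212, 206 and 199 with 0.1 µM THZ531, 232, 219 and 233 with lapatinib and 227, 213 and 214 with nilotinib. The strong treatments did not overlap DMSO, and the log2 FC was 0.73 ± 0.06, 0.71 ± 0.06 and 0.64 ± 0.06 (adjusted p = 7.31e-10, 1.27e-09 and 6.59e-09). The tetraspanin CD63 rose by 0.70, 0.55 and 0.50 on the log2 scale. LAMP1 varied more between libraries, at 254, 354 and 279 CPM in DMSO, 288, 533 and 487 with the lapatinib combination, 262, 388 and 428 with the nilotinib combination and 469, 367 and 351 with 1 µM THZ531. In each of the 3 treated groups 1 library lay within the DMSO range. The agents alone gave 223, 256 and 296 with 0.1 µM THZ531, 224, 332 and 302 with lapatinib and 262, 285 and 298 with nilotinib, within or near the DMSO range. LAMP1 was called higher in the lapatinib combination alone (0.56 ± 0.21, adjusted p = 0.0206), and the call was lost without replicate 1 or 3 of DMSO (adjusted p = 0.0888 and 0.0621) or without replicate 2 or 3 of the combination (0.125 and 0.0788). It was at 0.28 ± 0.21 and 0.42 ± 0.21 in the nilotinib combination and with 1 µM THZ531, where it was called without replicate 2 of DMSO (adjusted p = 0.0364) or replicate 1 of the lapatinib combination (0.0353). The rises of all 3 genes were on the TMM scale and were not called under mitochondrial scaling.

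Among 7 cathepsins and other proteases, 4, 3 and 5 were called higher and 0 lower in the lapatinib combination, the nilotinib combination and 1 µM THZ531 on the TMM scale, with 0 higher under mitochondrial scaling. CTSL, a cysteine protease, was at 155, 161 and 161 CPM in DMSO, 166, 161 and 163 with 0.1 µM THZ531, 164, 162 and 154 with lapatinib and 169, 161 and 161 with nilotinib. It was at 289, 291 and 289.6 CPM with the lapatinib combination, 279, 269 and 259.8 with the nilotinib combination and 266, 258 and 256 with 1 µM THZ531. The spread within each group was narrow and the strong treatments stood clear of the rest. Its log2 FC was 0.87 ± 0.05, 0.76 ± 0.05 and 0.71 ± 0.05 (adjusted p = 2.29e-12, 1.70e-11 and 6.67e-11). CTSZ (0.69, 0.57 and 0.65) and the tripeptidyl peptidase TPP1 (0.66, 0.55 and 0.66) rose in all 3. The aspartic protease CTSD was called in the lapatinib combination and at 1 µM (0.43 and 0.41), CTSA, which also protects other hydrolases, at 1 µM (0.46), and each of these calls was lost in 3 to 8 of 21 analyses with a library left out. In the lapatinib combination CTSA was at 0.43 (adjusted p = 0.0507), called higher in 8 of 10 alternatives and in 6 of 21 analyses with a library left out, and it was at 0.24 without a call in the nilotinib combination. CTSB was at 0.41 ± 0.23, 0.15 ± 0.23 and 0.29 ± 0.23, not called, but without replicate 1 of the lapatinib combination it was called higher there (0.66, adjusted p = 0.0111), as it was under upper-quartile scaling. CTSK, the cathepsin of bone-resorbing cells, was rare, with 45 to 162 counts per library, at 0.742, 1.40 and 0.545 CPM in DMSO and 0.721, 0.711 and 0.657, 0.637, 0.681 and 0.825 and 0.798, 1.02 and 0.995 in the same order, with all groups overlapping DMSO and no call on the TMM scale, while mitochondrial scaling called it lower in both combinations (-1.01 and -0.92). Single agents gave 0.4, 0.559 and 0.663 with 0.1 µM THZ531, 0.512, 1.01 and 0.95 with lapatinib and 0.752, 0.834 and 0.924 with nilotinib.

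Of 8 glycosidases and sulfatases, 7 were tested, and 3, 3 and 4 were called higher and 0 lower on the TMM scale in the lapatinib combination, the nilotinib combination and 1 µM THZ531, with 0 higher under mitochondrial scaling. The alpha-galactosidase GLA (0.35, 0.27 and 0.30), the beta-galactosidase GLB1 (0.24, 0.18 and 0.17) and NAGLU, which degrades heparan sulfate (0.31, 0.35 and 0.37), rose by small amounts in all 3, but under mitochondrial scaling GLB1 was called lower in all 3 (-0.44, -0.44 and -0.37) and NAGLU in the lapatinib combination (-0.37). The call of GLA in the nilotinib combination was lost in 2 of 21 analyses with a library left out, and that of ATP6V1F in V1 in 1. GAA, the acid alpha-glucosidase that breaks down glycogen, had the highest mean change in its list but was called at 1 µM alone (0.60 ± 0.26, adjusted p = 0.0422). It was at 30.3, 48.7 and 35.1 CPM in DMSO, 33.7, 68.8 and 64.2 and 34.9, 55.96 and 56.6 in the combinations and 69.3, 54.4 and 49.6 with 1 µM THZ531, so that each combination had a library within the DMSO range. It was at 25.5, 32.7 and 40.7 with 0.1 µM THZ531, 25.8, 42.8 and 38.1 with lapatinib and 32.1, 38.5 and 39.1 with nilotinib. Its call was lost without replicate 1 or 3 of DMSO (adjusted p = 0.163 and 0.111) or without replicate 1 or 2 of 1 µM THZ531 (0.165 and 0.0544), and it was called in the lapatinib combination (0.80, adjusted p = 0.00551) when replicate 1 of that combination was left out, as it was without replicate 2 of DMSO (adjusted p = 0.022) or replicate 1 of the nilotinib combination (0.0479). The heparan sulfatase SGSH was at 31.3, 36.4 and 32.6 CPM in DMSO, 30.8, 32.1 and 33.5 and 31.7, 33.1 and 32.9 in the combinations and 35.9, 38.7 and 36.5 with 1 µM THZ531, overlapping DMSO throughout, and at 35.3, 37.4 and 40.8 with 0.1 µM THZ531, 30.5, 33.6 and 31.02 with lapatinib and 31.2, 31.8 and 31.1 with nilotinib. Mitochondrial scaling called SGSH lower in all 3 strong treatments (-0.74, -0.65 and -0.39), while without replicate 2 of DMSO it was called higher at 1 µM on the TMM scale (0.21, adjusted p = 0.0174). GUSB (0.40, 0.19 and 0.41) and HEXA (0.32, 0.01 and 0.14) were not called, but both were called higher in the lapatinib combination without its replicate 1 (GUSB 0.59, adjusted p = 0.0122, and HEXA 0.52, adjusted p = 0.00715) or without replicate 2 of DMSO (adjusted p = 0.0355 and 0.031). Of 10 alternatives, 4 called GUSB and 2 called HEXA higher in that combination, and 5 called GUSB higher at 1 µM, as did 3 of 21 analyses with a library left out. The sialidase NEU1 had 0 to 40 counts per library and was not tested. In the reference genome used here, all 100-base windows of its exons occur again on alternate scaffolds, and how the counting treated reads that match more than 1 place was not given in the sources used here.

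All 5 genes of lipid handling were called higher in the lapatinib combination and with 1 µM THZ531 and 4 of 5 in the nilotinib combination on the TMM scale, with 0 higher under mitochondrial scaling. LIPA, the acid lipase that frees cholesterol from its esters, was at 98.1, 86.4 and 96.8 CPM in DMSO, 166, 137 and 143 with the lapatinib combination, 160.0, 137 and 145 with the nilotinib combination and 148, 156 and 154 with 1 µM THZ531. SMPD1, the acid sphingomyelinase, was at 82.5, 96.7 and 90.7 CPM in DMSO and 113, 124 and 125, 108, 116 and 113 and 120.5, 124 and 115 in the same order. Neither gene overlapped DMSO in these groups. Given singly, the agents left LIPA at 98.5, 97.03 and 88.3 with 0.1 µM THZ531, 109.7, 94.8 and 98.4 with lapatinib and 92.96, 94.03 and 90.4 with nilotinib and SMPD1 at 78.7, 82.7 and 89.8 with 0.1 µM THZ531, 78.5, 88.8 and 85.5 with lapatinib and 90.5, 89.4 and 89.7 with nilotinib. The log2 FC was 0.66 ± 0.08, 0.65 ± 0.08 and 0.70 ± 0.08 for LIPA and 0.42 ± 0.07, 0.32 ± 0.07 and 0.41 ± 0.07 for SMPD1, which under mitochondrial scaling was called lower in the nilotinib combination (-0.30). The acid ceramidase ASAH1 (0.69, 0.62 and 0.59) and the thioesterase PPT1 (0.70, 0.67 and 0.54) rose in all 3. PSAP, the precursor of the saposins, was at 0.64 and 0.54 in the lapatinib combination and with 1 µM THZ531, each call being lost in 3 of 21 analyses with a library left out, and at 0.33 without a call in the nilotinib combination, where it was called without replicate 2 of DMSO (0.54, adjusted p = 0.0497).

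The 4 autophagy genes went in different directions. WIPI1, which binds phosphoinositides on forming autophagosomes, was at 34.2, 36.3 and 37.4 CPM in DMSO, 33.1, 33.1 and 32.03 with 0.1 µM THZ531, 41.4, 39.8 and 39.2 with lapatinib and 37.4, 34.6 and 32.9 with nilotinib. It was at 18.3, 15.5 and 15.9 CPM with the lapatinib combination, 18.6, 16.3 and 16.1 with the nilotinib combination and 18.9, 19.5 and 19.2 with 1 µM THZ531. The strong treatments lay far below every other library. The log2 FC was -1.12 ± 0.08, -1.08 ± 0.08 and -0.91 ± 0.08 (adjusted p = 6.80e-11, 1.19e-10 and 2.03e-09).

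MAP1LC3B encodes LC3B, which is coupled to lipids of the autophagosome membrane. It was at 71.2, 66.3 and 74.3 CPM in DMSO, 77.04, 77.5 and 71.6 with 0.1 µM THZ531, 78.7, 74.8 and 75.03 with lapatinib and 76.7, 71.3 and 72.6 with nilotinib, and at 137, 133 and 129 with the lapatinib combination, 124, 119.6 and 121 with the nilotinib combination and 115, 119 and 121 with 1 µM THZ531. The strong treatments lay above all other groups, with a log2 FC of 0.91 ± 0.06, 0.78 ± 0.06 and 0.74 ± 0.06 (adjusted p = 1.85e-11, 2.18e-10 and 5.95e-10) on the TMM scale and no call under mitochondrial scaling. Of its 100-base exon windows 6.69% occur again in the genome, so that a small part of its reads could be shared with copies.

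SQSTM1, the autophagy receptor p62, was among the most abundant members, at 891, 894 and 930.2 CPM in DMSO, 1156, 903 and 995 and 1119, 941 and 896 in the combinations and 905, 1041 and 998 with 1 µM THZ531. Single agents gave 981, 948 and 974 with 0.1 µM THZ531, 1006, 911 and 901 with lapatinib and 936, 889 and 896 with nilotinib. All 3 strong treatments overlapped DMSO and the log2 FC of 0.17 ± 0.08, 0.12 ± 0.08 and 0.12 ± 0.08 was not called. Without replicate 2 of the lapatinib combination SQSTM1 was called higher there (0.25, adjusted p = 0.0143), as it was without replicate 1 of the nilotinib combination (0.0445), while under mitochondrial scaling SQSTM1 was called lower in all 3 (-0.51, -0.49 and -0.42). GABARAPL1, another LC3-like protein, was nearly absent, with 2 to 29 counts per library. Its counts were 9, 12 and 7 in DMSO and 15, 8 and 29 in the lapatinib combination, whose highest library was above DMSO and whose lowest was within it. The counts were 11, 10 and 2 with 0.1 µM THZ531, 6, 6 and 8 with lapatinib, 6, 7 and 13 with nilotinib, 9, 12 and 14 with the nilotinib combination and 16, 16 and 11 with 1 µM THZ531. The call in the lapatinib combination (1.27 ± 0.49, adjusted p = 0.0256) was lost without replicate 3 of that combination (0.67, adjusted p = 0.267) or without replicate 1 or 3 of DMSO (adjusted p = 0.0683 and 0.087).

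In DMSO the level per length of transcript, in CPM per kb of exon of the canonical GENCODE transcript, was highest for CD63 (386), SQSTM1 (319), CTSB (192) and CTSD (169.6). Apart from NEU1 it was lowest for GABARAPL1 (0.0417), MITF (0.448), CTSK (0.549), TFEB (1.04) and ATP6V0A2 (3.86). Per length, TFE3 at 14.6 was thus the most abundant of the 3 MiT/TFE mRNAs. Libraries were unstranded, so reads where members overlap other genes cannot be assigned by strand, as for PPT1 with CAP1, WIPI1 with PRKAR1A and ARSG, SQSTM1 with MGAT4B, ATP6V1D with GPHN and LIPA with genes of the IFIT cluster in RefSeq.

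Against DMSO, single treatments left nearly all members without a call. With 0.1 µM THZ531, 2 of 46 (ATP6V1B2 and MITF) were called higher and 0 lower, beside 1.78% and 4.31% of all tested genes. With lapatinib, 0 members were called by edgeR, 4 had an unadjusted p under 0.05 and DESeq2 called 0, where 0.312% of all genes were called. With nilotinib, 0 were called, 0 had an unadjusted p under 0.05 and DESeq2 called 0, where 0.343% of all genes were called. Log2 FC ranged from -0.72 (CTSK) to 0.42 (MITF) with 0.1 µM THZ531, from -0.37 (GABARAPL1) to 0.16 (WIPI1) with lapatinib and from -0.17 (MITF) to 0.14 (CD63) with nilotinib. Between lapatinib and nilotinib, 0 members were called by edgeR and by DESeq2, 4 had an unadjusted p under 0.05, and 0.904% of all genes were called.

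The combinations were then compared with 1 µM THZ531, a 10-fold higher dose than the one they contain. With lapatinib, 5 members were higher and 6 lower than with 1 µM THZ531, beside 12.8% and 16.1% of all genes. With nilotinib, 2 were higher and 7 lower, beside 11.2% and 13%. ATP6V1B2 was higher in both combinations, by 0.61 ± 0.08 (adjusted p = 8.84e-06) with lapatinib and 0.55 ± 0.08 (adjusted p = 3.06e-05) with nilotinib, as was MITF, by 0.57 ± 0.13 (adjusted p = 0.00175) and 0.37 ± 0.13 (adjusted p = 0.037). ATP6V1C1 was lower in both (-0.66 ± 0.10 and -0.71 ± 0.10, adjusted p = 5.32e-05 and 3.12e-05), and so was TFE3 (-0.45 ± 0.09 and -0.52 ± 0.09, adjusted p = 0.000529 and 0.000175). ATP6V0A2 (-0.30 and -0.28) and ATP6V1H (-0.29 and -0.31) were lower in both by smaller amounts. The greatest difference was that of TFEB, lower in the nilotinib combination at -1.13 ± 0.23 (adjusted p = 0.00094) and at -0.44 ± 0.22 with lapatinib (adjusted p = 0.141). ATP6V0C (0.23), MAP1LC3B (0.17) and CTSL (0.15) were higher and WIPI1 (-0.21) and SGSH (-0.21) lower with lapatinib, and MCOLN1 (-0.37) and ATP6V1G1 (-0.28) were lower with nilotinib. Under mitochondrial scaling 5 members were called in each comparison.

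The interaction compares the log2 FC of a combination with the sum of the log2 FC of its 2 agents given alone. With lapatinib, 31 members were above and 5 below that sum, beside 28.2% and 32% of all genes. With nilotinib, 19 were above and 5 below, beside 25.6% and 31.2%. TFEB, ATP6V0A2, ATP6V1C1, WIPI1 and TFE3 were below it in both. The interaction was -2.40 ± 0.27 and -3.25 ± 0.28 for TFEB with lapatinib and nilotinib (adjusted p = 2.21e-07 and 5.88e-09). It was -0.30 ± 0.12 and -0.40 ± 0.12 for TFE3 (adjusted p = 0.0382 and 0.00918). ATP6V0C was above the sum by 1.04 ± 0.09 and 0.67 ± 0.09 (adjusted p = 3.16e-09 and 1.51e-06). These counts fell to 11 and 7 members in all under mitochondrial scaling.

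The members called lower came from the V0, V1, transcription factor and autophagy lists. They spanned 14.6 kb (TFE3) to 52.2 kb (TFEB), apart from MITF (229 kb), which was called lower at 1 µM THZ531. In RefSeq the tested members spanned 2.99 kb (ATP6V1F) to 229 kb (MITF). The 21 members under 20 kb had a median log2 FC of 0.43 in the lapatinib combination, the 16 members of 20 to under 50 kb 0.56, and the 9 of 50 kb or more 0.18, where all tested genes in these ranges had 0.24, -0.16 and -0.17. The corresponding medians were 0.35, 0.38 and 0.018 in the nilotinib combination and 0.46, 0.41 and 0.17 with 1 µM THZ531. TFEB (52.2 kb), ATP6V1C1 (52.0 kb), ATP6V0A2 (49.4 kb), WIPI1 (36.2 kb) and TFE3 (14.6 kb) fell, while LIPA (201 kb) and GLB1 (136 kb) rose on the TMM scale. GLB1 was called lower in all 3 treatments under mitochondrial scaling, and the RefSeq span of LIPA also covers genes of the IFIT cluster. Spearman's rho between span and log2 FC over the 46 members was -0.39, -0.30 and -0.37 in that order, and over 15857 tested genes -0.19, -0.15 and -0.16. Between level in DMSO and log2 FC, rho over the 46 members was 0.42, 0.38 and 0.32, where DMSO values enter both sides. Genes are not independent replicates, and all points come from the same libraries. The part of gene span or of level in these changes was not tested.

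Other genes of the pathway, from 7 lists chosen by function, held 138 genes, of which 130 were tested. On the TMM scale 63, 61 and 61 of the 130 were called higher and 46, 44 and 41 lower in the lapatinib combination, the nilotinib combination and 1 µM THZ531. Of all tested genes, 34.3%, 33.7% and 33.1% were called higher and 37.8%, 37.3% and 36.8% lower, to be set beside each list that follows. Mitochondrial scaling called 3 of the 130 higher in each and 71, 70 and 62 lower. The shares of all tested genes under it were 5.3%, 4.83% and 4.35% higher and 58.4%, 55.9% and 52.5% lower. Of 26 other lysosomal hydrolases and cofactors 20, 18 and 19 were higher and 2, 1 and 1 lower, while of 33 core autophagy genes 12, 12 and 10 were higher and 17 lower in each treatment. Of 6 other V-ATPase subunits, 4 were higher and 0 lower in each. Of 24 lysosomal membrane and transport genes 11, 10 and 12 were higher and 10, 11 and 7 lower, of 17 nutrient-sensing genes 7, 6 and 6 higher and 6, 6 and 8 lower, of 16 tethering and fusion genes 5, 7 and 6 higher and 8, 7 and 7 lower, and of 8 autophagy receptors 4, 4 and 4 higher and 3, 2 and 1 lower. Among genes called the same way in all 3 treatments, the deepest falls were those of SLC38A9, an arginine sensor of the lysosomal membrane (-2.84, -3.01 and -2.18), PIK3R4, the regulatory subunit of the autophagy PI3-kinase VPS34 (-2.38, -2.18 and -1.57), GGA3, a sorting adaptor (-2.02, -2.10 and -1.92), FNIP1, a partner of folliculin (-1.75, -1.92 and -1.94), and ATG4C, a protease of LC3-like proteins (-2.20, -1.79 and -1.55). The highest were CTSV, a cathepsin (1.00, 1.09 and 1.01), RRAGB, a Rag GTPase (1.04, 1.00 and 0.91), TAX1BP1, an autophagy receptor (1.03, 0.95 and 0.90), RHEB, the GTPase that activates mTORC1 (1.09, 0.95 and 0.78), and TCIRG1, another a subunit of V0 (0.85, 0.95 and 0.97). For RHEB, 22.1% of the 100-base exon windows occur again in the genome, so that part of its reads could be shared with copies.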

How the data were processed

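The authors deposited a table of raw gene counts for 21 unstranded, poly(A)-selected libraries of Hs578T cells, and the submitters' processing notes name HISAT2 2.1.0, featureCounts, DESeq2 and the build GRCh38. The gene annotation and the handling of reads with several matches were not given in the sources used here. From the counts, genes kept by filterByExpr (16036 of 28395) were fitted in edgeR 4.0.16 (R 4.3.3, limma 3.58.1) with TMM factors and 1 mean for each of the 7 groups, and the quasi-likelihood test was adjusted by Benjamini-Hochberg over all tested genes. A gene was called at an adjusted p under 0.05, and DESeq2 1.42.0 was an alternative. CPM values use TMM-scaled library sizes, and counting error is the only error that depth (97612207 to 112229052 counts) sets directly. Symbols came from RefSeq (27745 of 28395 identifiers matched, GRCh38.p14) and exon lengths from GENCODE.

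Groups followed the labels, and 0 columns were left unused. Each treatment was compared with DMSO, each combination with 1 µM THZ531, lapatinib with nilotinib, and each combination with the sum of its single agents. The members and lists were chosen with earlier results of these data known. Values by library were given for the members with the highest and lowest mean log2 FC over the 3 strong treatments in each role list, for members called with a single agent, and for all channel, transcription factor and autophagy members. Of the other pathway genes, the 5 highest and 5 lowest among those called the same way in all 3 were named. The alternatives were RLE, library size, upper-quartile and mitochondrial mRNA scaling, other count filters (none, or at least 10 counts in every library), a replicate block, halved counts, a fit of only the groups compared, DESeq2, and each library left out. The code was tested on simulated data. Same-numbered libraries were checked for pairing: of 63 pairs, 36 had a correlation of deviations over 0.1 and the lowest was -0.847, so the numbers were not taken to pair libraries.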

Additional observations from a re-analysis of the deposited data

Results flagged for a closer look

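Several members differed from the sum of the single-agent effects, tested as an interaction in the edgeR fit with Benjamini-Hochberg adjustment. With lapatinib and 0.1 µM THZ531 this held for 36 members, 31 above and 5 below the sum, beside 28.2% and 32% of all tested genes. Of those with an interaction beyond 1 on the log2 scale, TFEB was at -2.40, ATP6V0A2 at -1.37, ATP6V1C1 at -1.30 and WIPI1 at -1.14, while ATP6V0C was at 1.04 and GABARAPL1, with 2 to 29 counts per library, at 1.85. With nilotinib and 0.1 µM THZ531 it held for 24 members, 19 above and 5 below the sum, beside 25.6% and 31.2% of all tested genes. Among them were TFEB at -3.25, ATP6V0A2 at -1.26 and ATP6V1C1 at -1.25. Whether the 2 interactions differ from each other was not tested.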

How the results depend on the processing

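TFEB, ATP6V0A2, ATP6V1C1 and WIPI1 (all 3 strong treatments) and TFE3 (both combinations) were called lower under all 10 alternatives run besides leaving out libraries. The counts of members called depended on the scaling, as did the shares of all genes given above for library size and mitochondrial scaling. With library size alone, members called higher numbered 17, 14 and 17 in the lapatinib combination, the nilotinib combination and 1 µM THZ531, those called lower in the combinations 9 and 10, and those with a lapatinib interaction 20. With mitochondrial scaling, 0 were higher in each, 16, 20 and 13 were lower, 16 and 13 changed in all in the lapatinib combination and at 1 µM, 5 differed between each combination and 1 µM, and 11 and 7 had an interaction. A fit of only the groups compared gave 4 and 3 members between the combinations and 1 µM THZ531. For 0.1 µM THZ531 the count was 0 under library size, upper-quartile and mitochondrial scaling and without a filter, and 1 with only the groups compared. Mitochondrial scaling turned 25, 26 and 24 of the 46 members from above to below 0 in the lapatinib combination, the nilotinib combination and at 1 µM, of which 16, 15 and 16 were called higher on the TMM scale. Among members given by library and called on either scale, it reversed ATP6V1B2 (-0.046, -0.041 and -0.51 in that order), SMPD1 (-0.26, -0.30 and -0.13) and SQSTM1 (-0.51, -0.49 and -0.42). In the lapatinib combination it reversed LAMP1 (-0.12), LIPA (-0.019), MCOLN1 (-0.52), MITF (-0.50) and ATP6V1D (-0.00010), in the nilotinib combination ATP6AP2 (-0.050), and at 1 µM SGSH (-0.39) and MCOLN1 (-0.22), and library size reversed ATP6V1B2 at 1 µM (-0.23). Leaving out 1 library gave 29 to 38 changed members in the lapatinib combination (24 to 33 higher, 5 lower), 28 to 29 in the nilotinib combination (22 to 24 higher, 5 to 6 lower), 31 to 38 at 1 µM (26 to 33 higher, 4 to 5 lower), 8 to 12 and 6 to 10 against 1 µM, 28 to 37 and 22 to 27 interactions, 0 to 2 at 0.1 µM THZ531 and 0 with lapatinib, with nilotinib and between them. With the replicate block the counts were 1 at 0.1 µM THZ531, 37, 29 and 39 in the strong treatments, 12 and 10 against 1 µM and 36 and 27 interactions. Of 21 libraries, 8 correlated best with their own number among the 3 replicate numbers, which does not show a pairing. The cause of these shifts between scalings was not tested. GABARAPL1 had 2 to 29 counts per library.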

Other observations

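Several abundant members had their lowest library in common. LAMP1, taken as the reference after its values were seen, was lowest in replicate 1 in 6 groups and in replicate 3 with 1 µM THZ531. In all 7 groups the same library was lowest for 9 of 46 members (ATP6AP1, CTSA, CTSB, CTSD, GAA, HEXA, LAMP1, PSAP and TPP1), LAMP1 itself included, beside 2.48% of all tested genes. In at least 6 of 7 groups it was so for 13 members, beside 8.94% of all genes, and both the lowest and the highest library were shared in all 7 groups by 4 members, beside 0.555%. Their part in the calls was not tested.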
